A study of Mus musculus with 9 samples.

Results

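Known intergenic lncRNAs are annotated long non-coding RNAs whose genes lie between protein-coding genes. They were taken as the rows of the deposited lncRNA table that are typed intergenic and marked known, leaving out the annotated Malat1 and Neat1 genes, and were summed per locus. This gave 2024 loci with 3494 transcripts, of 9635 loci and 15589 transcripts in the table. RNA came from β-TC6 cells, a cultured line of insulin-secreting cells grown from an insulinoma of a transgenic mouse, which is a tumour line and not islet tissue. The 9 libraries, depleted of ribosomal RNA, form 3 groups of 3. They are untreated controls, cells given 400 µmol/L palmitic acid for 24 h and cells given 400 µmol/L stearic acid for 24 h, both acids with 1.3% bovine serum albumin. Both are saturated fatty acids, and the chain of stearic acid is the longer by a pair of carbons. No label says whether the controls received albumin, so acid and albumin cannot be told apart. The labels do not say that the 3 libraries of a group came from separate cultures, so the p-values measure the spread between these libraries, which may be technical.

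Long intergenic non-coding RNAs are transcribed from their own promoters, spliced and usually polyadenylated like messenger RNAs, but carry no long conserved reading frame. Some act near the site where they are made, on the gene next door, and others work as scaffolds, as decoys for proteins or microRNAs, or as precursors of small RNAs. Most are present at lower levels than messenger RNAs and in fewer tissues, and in β cells several are known to follow the transcription factors that set cell identity.

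Counts assigned to lncRNAs totalled 1537431 to 2870275 per library, and the known intergenic loci held 131599 to 260944 of them, or 8.48 to 9.74%. Coordinates are on mm10. Of the 2024 loci, 1994 carry the identifier of a gene in GENCODE mouse release 21 (GRCm38), all 1994 overlap that gene, and 1822 are typed lincRNA there. Against the name intergenic, 48 loci overlap a coding gene in that release and 21 carry the identifier of a gene typed protein coding. Every one of the 3494 transcripts has at least 2 exons, with a median of 3 and a maximum of 10. Other cell types were looked for only among the known intergenic loci. No leukocyte marker lncRNA is one of these loci. The leukocyte marker Mir142hg is in the table outside them and was not examined, so this absence says nothing about leukocytes. The mesenchymal markers Carmn, Hotair and Hottip together had between 0 and 5 counts in a library.

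Sequences are shown for loci described further on, some called and 1 not. The mature miR-15a and miR-16, which Dleu2 is known to carry, share the seed AGCAGCA, given in capitals, and are RefSeq sequences on GRCm38.p6. They lie at chr14:61632075-61632096 and chr14:61631936-61631957 on the minus strand, 202 and 341 bp beyond the end of the Dleu2 locus as deposited.
mmu-miR-15a-5p: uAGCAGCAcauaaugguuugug
mmu-miR-16-5p: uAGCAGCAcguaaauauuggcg

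1700020I14Rik, also called Cyrano, did not pass with either acid and is shown for its known function. It is known for a long site that pairs with miR-7 and promotes its decay. A search of its 2 GENCODE transcripts, which allowed up to 3 unpaired bases of the RNA in 1 place, found the site in 1 of them, from base 2935 of 8300. Over 25 bases, 22 of the 23 bases of miR-7a pair and 2 bases of the RNA stay unpaired, while the next best window of that transcript paired 16. The seed of the RefSeq miR-7a and its match in the site are in capitals.
mmu-miR-7a-5p: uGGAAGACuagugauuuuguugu
1700020I14Rik site: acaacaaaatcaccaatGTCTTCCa

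Promoters (250 bases before to 50 after the RefSeq start on GRCm38.p6) are shown for Dleu2 and Lockd, which fell with stearic acid, and for 1300002E11Rik, Gm5860 and Miat, which rose. Capitals mark matches to the E-box CACGTG in Dleu2 (chr14:61682324-61682623, minus strand), to the CCAAT box, here as its reverse complement, in Lockd (chr6:134928842-134929141, plus strand) and 1300002E11Rik (chr16:21794097-21794396, plus strand), and to the cyclic AMP response element TGACGTCA in 1300002E11Rik. Gm5860 (chr4:82065130-82065429, plus strand) and Miat (chr5:112228899-112229198, minus strand) hold no match to the 5 motifs searched, and their RefSeq starts lie 51 and 447 bp from the deposited ends of the loci.
Dleu2 promoter: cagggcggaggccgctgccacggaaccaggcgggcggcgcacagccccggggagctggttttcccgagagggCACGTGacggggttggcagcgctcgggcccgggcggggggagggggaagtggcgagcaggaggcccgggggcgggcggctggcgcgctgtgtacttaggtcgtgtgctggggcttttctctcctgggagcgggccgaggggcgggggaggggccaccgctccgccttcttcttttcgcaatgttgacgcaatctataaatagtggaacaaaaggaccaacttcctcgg
Lockd promoter: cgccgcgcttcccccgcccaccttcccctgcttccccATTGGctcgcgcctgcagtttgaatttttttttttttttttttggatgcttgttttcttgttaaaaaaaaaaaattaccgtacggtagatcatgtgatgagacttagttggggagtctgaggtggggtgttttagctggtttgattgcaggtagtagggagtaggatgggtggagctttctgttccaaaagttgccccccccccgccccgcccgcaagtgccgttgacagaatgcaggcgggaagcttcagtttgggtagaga
1300002E11Rik promoter: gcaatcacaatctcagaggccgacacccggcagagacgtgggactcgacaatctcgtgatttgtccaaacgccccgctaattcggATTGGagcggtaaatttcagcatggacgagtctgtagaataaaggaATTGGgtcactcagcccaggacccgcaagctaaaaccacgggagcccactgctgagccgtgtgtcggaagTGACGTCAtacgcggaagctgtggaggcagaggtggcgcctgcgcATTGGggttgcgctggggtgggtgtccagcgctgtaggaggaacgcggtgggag
Gm5860 promoter: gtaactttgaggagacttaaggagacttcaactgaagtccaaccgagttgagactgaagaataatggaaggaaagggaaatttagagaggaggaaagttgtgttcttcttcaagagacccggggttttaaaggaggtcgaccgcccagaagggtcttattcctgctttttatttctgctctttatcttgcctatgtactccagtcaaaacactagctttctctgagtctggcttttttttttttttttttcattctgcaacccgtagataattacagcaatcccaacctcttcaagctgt
Miat promoter: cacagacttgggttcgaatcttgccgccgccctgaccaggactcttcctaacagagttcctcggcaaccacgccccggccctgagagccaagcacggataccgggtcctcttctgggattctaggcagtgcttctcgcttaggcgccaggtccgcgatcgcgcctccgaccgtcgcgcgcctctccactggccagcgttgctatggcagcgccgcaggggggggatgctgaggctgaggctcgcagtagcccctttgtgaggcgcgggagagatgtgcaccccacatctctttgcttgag

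Most of the annotated loci were not detected in these cells, and few were abundant. A count above 0 was found in at least 1 library for 891 of the 2024 loci, with 491 to 575 loci per library, and 1133 loci were at 0 throughout. A count of 0 in all allows up to 3 counts per library, or 1.05 to 1.95 as CPM, counts scaled to a common library total over lncRNAs. Of the loci, 370 lie on the Y chromosome, where 1 was detected, with 2 counts in all, and of the 1654 others 890 were detected (53.8%). Expression in control, taken as at least 10 counts in each control library, was reached by 230 loci (11.4%), against 244 with palmitic and 228 with stearic acid. By the same rule 24.6% of the unannotated intergenic, 41.2% of the known antisense and 28.5% of the unannotated antisense loci were expressed in control. These shares are a description with no test, and the classes cannot be compared by them. Unannotated loci may have entered the table only through reads of these libraries, while annotated loci need none. A count above 0 in at least 1 library was found for 44.0% of the known and 87.1% of the unannotated intergenic loci. The 11.4% also counts the 370 loci on the Y chromosome.

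Among the 230 expressed loci the median control FPKM (fragments scaled by transcript length and library total) was 16.3, with quartiles of 7.97 and 47.2 and a range of 2.42 to 50618. The authors' FPKM values divide by a total close to that of the lncRNAs alone, so they are levels among lncRNAs and cannot be set beside FPKM taken over a whole transcriptome. A few loci held most of the signal. The 3 highest took 81.4% of the control counts of these loci and the 10 highest 86.7%, and the third locus had 13.1 times the counts of the fourth.

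Gm26917 on chromosome 17 stood first by length-scaled level, with FPKM of 51515, 52428 and 47910 in the control libraries. Its mean was 50618 ± 2389 (SD, n = 3) in control, 45569 ± 6652 with palmitic acid and 49874 ± 9813 with stearic acid. The groups overlapped, and neither change passed edgeR's quasi-likelihood test (log2 -0.10 ± 0.14, standard error, with palmitic and -0.04 ± 0.14 with stearic acid). It ends 108 bp before Rn18s-rs5, an 18S ribosomal RNA pseudogene in RefSeq, and how far its level follows the depletion of ribosomal RNA in each library was not tested. Gm13710, on chromosome 2, followed with FPKM of 23117, 19288 and 18721 in control, and D230017M19Rik, 13.7 kb from the peroxisomal enzyme gene Pecr, with 8115, 9861 and 13536.

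Below these 3 the levels dropped. Lockd, the non-coding gene beside the cell cycle inhibitor gene Cdkn1b, had a control FPKM of 2578 ± 423, Gm12976 of 1480.1 ± 318 and AI662270 of 927 ± 162. Dleu2, the host of miR-15a and miR-16, had 368 ± 86.1. The next were Gm14742 (313 ± 46.4), Gm13373 (271 ± 36.8), Gm38025 (268 ± 38.9), AI480526 (259 ± 67.8) and 5430416N02Rik (224 ± 55.6). From Dleu2 to 5430416N02Rik, neighbours in this order differed by less than the larger of their SDs.

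**Figure D1:**
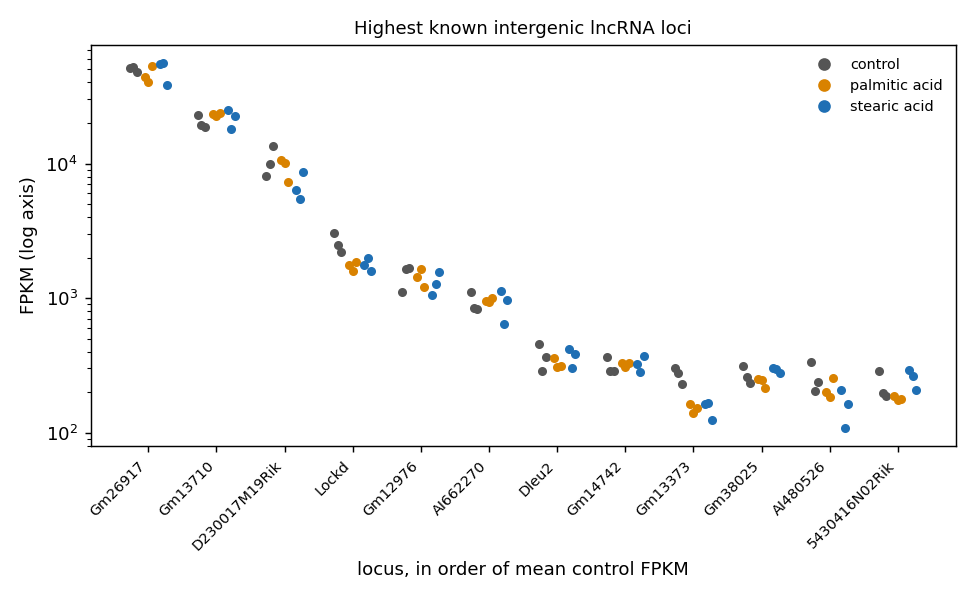
FPKM (log axis) of the 12 known intergenic lncRNA loci with the highest mean control level, with 1 point per library and the 3 groups side by side. Gm26917, Gm13710 and D230017M19Rik stand well above the others, and Lockd and Gm13373 lie lower with both acids than in every control library.

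Of the detected loci, 307 passed the filter on low counts and were tested, and 584 were detected but not tested. Tests used edgeR's quasi-likelihood test on counts per locus, with p-values adjusted by the method of Benjamini and Hochberg over all 3169 tested loci of the table and a threshold of 0.05. Levels of a locus between libraries are given as CPM after scaling of the libraries. Both acids were compared with the same 3 control libraries, so the results against control are not independent of each other.

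With palmitic acid 18 of the 307 tested loci passed the threshold, 13 higher and 5 lower. That is 5.86%, beside 4.92% of all tested loci in the table. In single directions the share over all tested loci was 3.22% higher and 1.7% lower. The median log2 change was 0.07 over the known intergenic loci and -0.02 over all tested loci. The libraries of the groups did not overlap at 85 of 307 loci (27.7%), beside 26.1% of all loci. The count of 18 fell to 10 without control library 3 and to 11 without palmitic acid library 1.

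With stearic acid 39 of the 307 passed, 30 higher and 9 lower. That is 12.7%, beside 9.91% of all tested loci, of which 5.43% were higher and 4.48% lower. The median log2 change was 0.08, against 0.00 over all tested loci. The libraries did not overlap at 100 loci (32.6%), beside 28.9% of all loci. The count of 39 fell to 21 without control library 3.

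**Figure D2:**
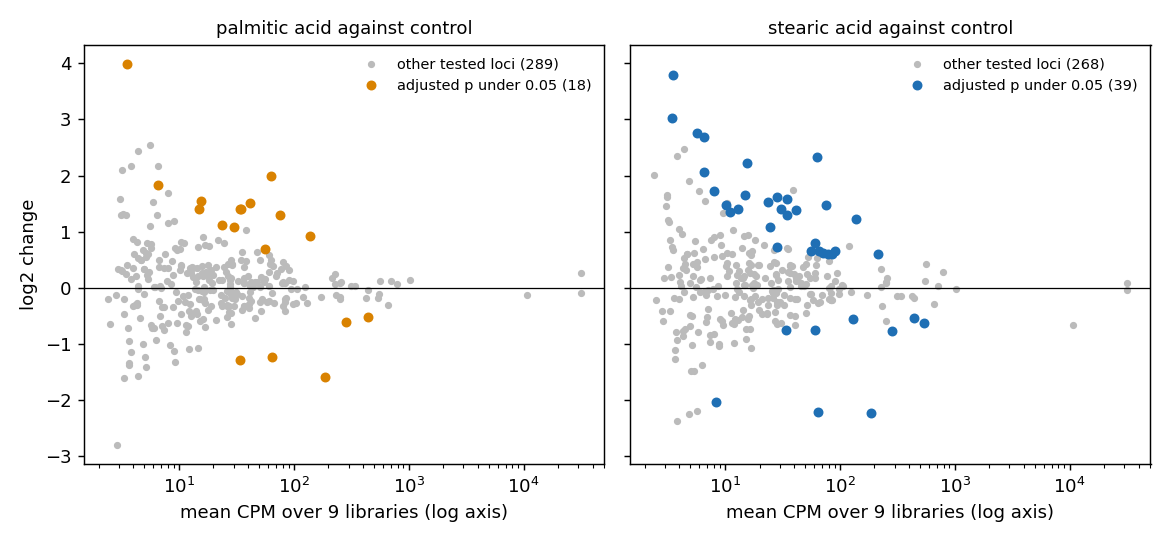
Log2 change against control of the 307 tested known intergenic lncRNA loci, by mean CPM over the 9 libraries (log axis), for palmitic acid on the left and stearic acid on the right. Coloured points are the 18 and 39 loci with an adjusted p under 0.05, and most of them, higher ones above all, lie below 100 CPM.

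The 9 loci that fell with stearic acid had a median control level of 155 CPM and the 30 that rose one of 15.8 CPM. These levels cannot be read as a trait of either set. Direction was set against the same control libraries, and a locus could pass the filter through its treated libraries alone. Of the 307 tested loci, 78 did not reach 10 counts in every control library. All 9 loci that fell list at least 2 transcripts, as do 24 of the 30 that rose and 201 of the 307 tested (65.5%). A coding gene lay within 10 kb of 3 of the 9 and of 20 of the 30, against 186 of the 307 tested (60.6%). A start on the opposite strand within 1 kb of a coding gene's start was found for 1 of the 9 and 10 of the 30, and for 105 of the 307 (34.2%).

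Gm12962 (chr4:131533007-131677845, minus strand) showed the largest decrease with both acids. It had 400, 379 and 309 CPM in control, 124, 141 and 93.4 with palmitic acid and 79.4, 77.9 and 72.5 with stearic acid. Every treated library lay below every control, and the log2 change was -1.60 ± 0.16 (adjusted p = 1.4e-05) and -2.24 ± 0.17 (adjusted p = 8.1e-08), or 3.02-fold and 4.73-fold lower. Gm27168 (chr8:86919424-86922681, minus strand) had 97.5, 143 and 111 CPM in control, 45.1, 46.2 and 58.6 with palmitic acid and 30.4, 26.9 and 18.9 with stearic acid. The 3 groups did not overlap, with log2 changes of -1.23 ± 0.20 (adjusted p = 0.00081) and -2.21 ± 0.21 (adjusted p = 2.4e-06). The annotation used here gives no function for either.

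Lockd (chr6:134929092-134951718, plus strand) fell with both acids. It had 574, 565 and 541 CPM in control, 377, 367 and 425 with palmitic acid and 345, 459 and 345 with stearic acid. All treated libraries lay below the controls, and the log2 change was -0.52 ± 0.14 (adjusted p = 0.033) and -0.55 ± 0.14 (adjusted p = 0.015). The palmitic acid call was lost in each of the 6 fits that left out 1 library (adjusted p from 0.066 to 0.15). The stearic acid call was lost in 4 of 6, without control library 1 or 2 or stearic acid library 1 or 3. Lockd starts 3.58 kb from Cdkn1b, which encodes p27, an inhibitor of cyclin-dependent kinases. Deletion of the Lockd locus is known in mouse erythroid cells to lower Cdkn1b, but a deletion removes DNA as well as RNA. Whether a fall in Lockd RNA goes with a change of Cdkn1b was not tested.

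Dleu2 (chr14:61632299-61682373, minus strand) fell with stearic acid. Its levels were 727, 559 and 657 CPM in control, 555, 574 and 585 with palmitic acid and 502, 291 and 462 with stearic acid. The palmitic acid libraries overlapped the controls (log2 -0.18 ± 0.17, adjusted p = 0.62). The stearic acid libraries lay below them (log2 -0.63 ± 0.17, adjusted p = 0.023), a call lost without control library 1 (adjusted p = 0.092) or control library 3 (adjusted p = 0.066) and under scaling by library size alone (adjusted p = 0.057) or in a fit of the 2 groups compared (adjusted p = 0.053). On the FPKM scale the mean was 368 ± 86.1 in control and 368 ± 60.4 with stearic acid, so the decrease was seen in counts and not in length-scaled levels. Its main 3-exon transcript, TCONS_00080600, held 74.0% ± 1.95 of the locus count in control and 62.8% ± 5.95 with stearic acid. TCONS_00080601 held 5.29% ± 1.45 and 11.4% ± 2.83. These microRNAs, which slow the cell cycle and promote apoptosis, were not measured.

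Gm13373 and AI480526 are among the 12 highest loci and fell as well. Gm13373 had 399, 384 and 353 CPM in control, 245, 234 and 260 with palmitic acid and 242, 238 and 185 with stearic acid. All treated libraries were below the controls, and the log2 change was -0.62 ± 0.14 (adjusted p = 0.013, lost without control library 1 or 2 or palmitic acid library 1 or 2) and -0.77 ± 0.14 (adjusted p = 0.0016). AI480526, which starts 0.138 kb from the histone methyltransferase gene Setd1b on the other strand, had 164, 151 and 151 CPM in control and 103, 102 and 110 with stearic acid. The stearic acid libraries were all lower (log2 -0.56 ± 0.14, adjusted p = 0.014, and 0.054 without control library 1), and with palmitic acid the change was -0.27 ± 0.14 (adjusted p = 0.31).

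Gm34068 fell with stearic acid by 0.76 ± 0.23 on the log2 scale (adjusted p = 0.047), a call lost in 5 of 6 fits that left out 1 library, all but the fit without stearic acid library 1, and also under scaling by library size alone and in a fit of the 2 groups. The other called decreases, named here after their values were seen, were 7630403G23Rik (log2 -2.04 ± 0.53 with stearic acid, adjusted p = 0.020) and 2410080I02Rik, 2.97 kb from Klf9, which encodes a Krüppel-like transcription factor. The latter had 40.7, 54.5 and 58.6 CPM in control, 23.8, 19.9 and 19.1 with palmitic acid and 29.97, 40.3 and 22.2 with stearic acid. The treated libraries lay below the controls with both acids, and the change with palmitic acid (log2 -1.29 ± 0.24, adjusted p = 0.0029) was larger in size than with stearic acid (log2 -0.76 ± 0.23, adjusted p = 0.048), a difference of 0.53 ± 0.25 that did not pass (adjusted p = 0.68). Its stearic acid call was lost without control library 2 or 3 or stearic acid library 1 or 3. It was also lost with DESeq2, with scaling by library size alone, in the fit of the 2 groups and without TCONS_00215072. That of 7630403G23Rik was lost without control library 1 or 3 or stearic acid library 1.

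**Figure D3:**
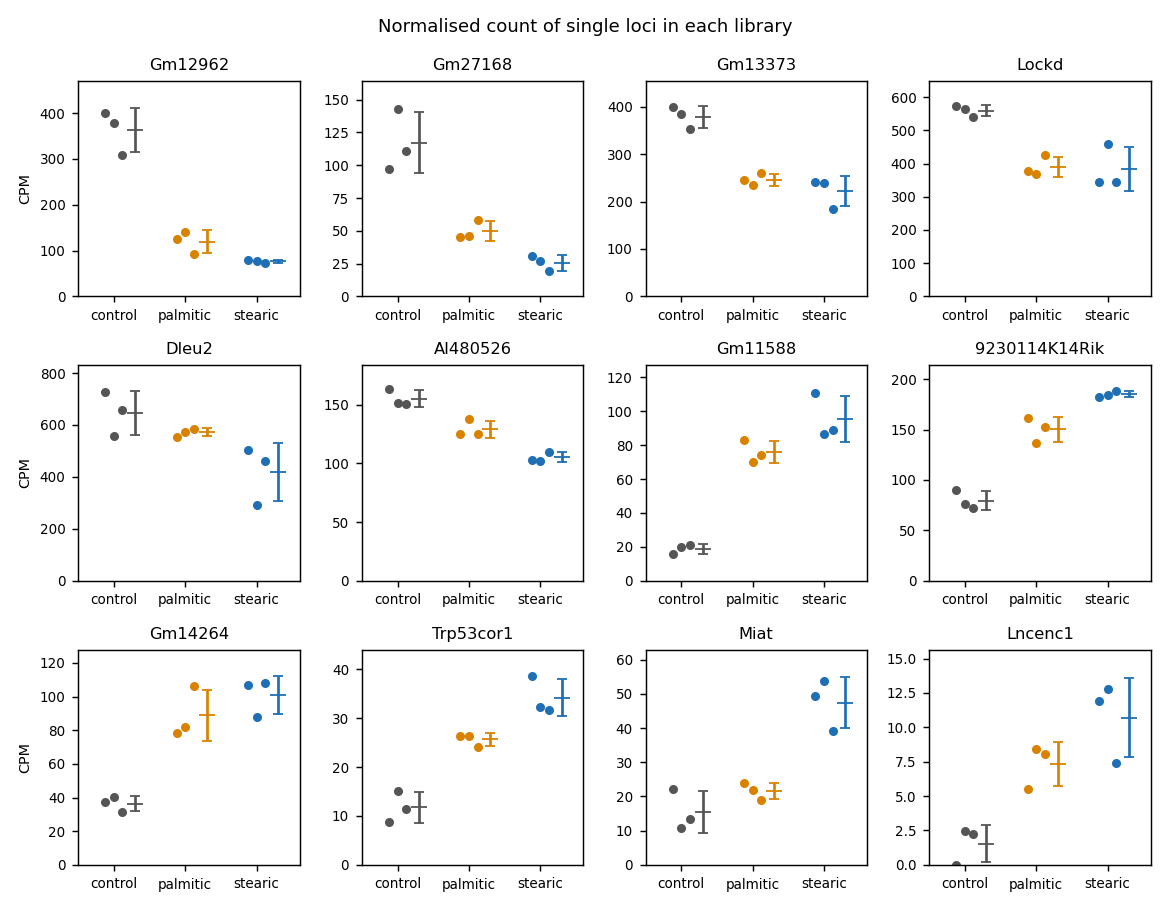
CPM of 12 known intergenic lncRNA loci in each library, with the mean and SD (n = 3) beside the points and every axis starting at 0. The first 6 panels show loci that fell with stearic acid and the last 6 loci that rose, and at Miat and Dleu2 the palmitic acid libraries overlap the controls.

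The largest increase among the better covered loci was at Gm11588 (chr1:61440101-61477251, plus strand). It had 15.5, 19.96 and 21.1 CPM in control, 83.2, 70.3 and 74.3 with palmitic acid and 111, 86.6 and 88.9 with stearic acid. The groups did not overlap, and the locus was 3.999-fold higher with palmitic acid (log2 2.0 ± 0.19, adjusted p = 7.1e-06) and 5.03-fold higher with stearic acid (log2 2.33 ± 0.19, adjusted p = 2.3e-07). Its nearest coding gene is the polarity gene Pard3b, 162 kb away.

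Further loci with no function in the annotation rose with both acids. Gm14264 had 37.3, 40.4 and 31.5 CPM in control, 78.5, 81.7 and 106 with palmitic acid and 107, 88.0 and 108 with stearic acid (log2 1.29 ± 0.18, adjusted p = 0.00020, and 1.48 ± 0.18, adjusted p = 3.1e-05). Gm5860, 187 kb from the transcription factor gene Nfib, had 19.4, 17.04 and 21.5 CPM in control, 56.8, 59.6 and 48.4 with palmitic acid and 49.5, 53.04 and 50.2 with stearic acid (log2 1.50 ± 0.19, adjusted p = 8.9e-05, and 1.39 ± 0.19, adjusted p = 0.00012). Gm7967 had 12.1, 16.5 and 18.5 CPM in control, 36.7, 42.4 and 47.1 with palmitic acid and 43.8, 35.6 and 62.6 with stearic acid (log2 1.40 ± 0.25, adjusted p = 0.0020, and 1.59 ± 0.25, adjusted p = 0.00047). In each of these loci all 6 treated libraries were above all 3 controls. Gm31373 rose less, from 39.8, 40.4 and 40.4 CPM to 61.2, 66.1 and 67.1 and to 62.3, 72.5 and 55.6, with log2 changes of 0.69 ± 0.17 and 0.65 ± 0.17 (adjusted p = 0.022 and 0.020). Its palmitic acid call was lost in 5 of 6 fits that left out 1 library, all but the one without palmitic acid library 1, and under scaling by library size alone. The stearic acid call was lost without any 1 control library, without stearic acid library 2 and with no filter on low counts.

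Trp53cor1 (chr17:29057474-29078961, minus strand), also called lincRNA-p21, is a target of the tumour suppressor p53 that lies 12.015 kb from Cdkn1a, the gene of the cyclin-dependent kinase inhibitor p21. It had 8.73, 15.1 and 11.5 CPM in control, 26.4, 26.4 and 24.2 with palmitic acid and 38.5, 32.2 and 31.7 with stearic acid. The 3 groups did not overlap, and the locus rose with both acids (log2 1.12 ± 0.26, adjusted p = 0.016, and 1.54 ± 0.26, adjusted p = 0.00087). The palmitic acid call was lost without control library 1 or 3 or palmitic acid library 2. Of the 4 loci in the list of stress and p53 lncRNAs, all tested, Trp53cor1 was the 1 that passed. Lncpint, a p53-induced lncRNA, gave 0.15 ± 0.17 and 0.13 ± 0.17, the imprinted tumour suppressor RNA Meg3 gave 0.31 ± 0.30 and 0.40 ± 0.30, and the known transcripts of Pvt1, a lncRNA beside Myc, gave 0.01 ± 0.21 and 0.20 ± 0.21. The median over the 4 was 0.23 with palmitic and 0.30 with stearic acid.

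Pvt1 depended on which of its transcripts were counted. The 3 known intergenic transcripts had 33.5, 51.1 and 42.3 CPM in control, 50.2, 34.0 and 43.7 with palmitic acid and 43.3, 44.99 and 56.8 with stearic acid, and the groups overlapped. Summed with the 18 rows of other classes at the same locus, Pvt1 passed with palmitic acid (log2 0.66, adjusted p = 0.0033) and with stearic acid (log2 0.97, adjusted p = 2.1e-05). At Gm26644 the reverse held. Its 8 known transcripts passed with both acids (log2 1.41 ± 0.39 and 1.65 ± 0.39, adjusted p = 0.044 and 0.011), and with the 1 other row added they did not (log2 0.90 and 1.19, adjusted p = 0.29 and 0.10). Its calls were also lost without control library 3 with both acids, and with palmitic acid without control library 2 or palmitic acid library 1 or 3, under scaling by library size alone and in a fit of the 2 groups. Such other-class rows stand at 105 of the 2024 loci.

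Miat (chr5:112213228-112229395, minus strand), a lncRNA of neural and retinal cells that is also known as Gomafu, rose with stearic acid. It had 22.3, 10.7 and 13.3 CPM in control, 23.8, 21.8 and 19.1 with palmitic acid and 49.5, 53.7 and 39.1 with stearic acid. The palmitic acid libraries overlapped the controls (log2 0.49 ± 0.27, adjusted p = 0.36), and the stearic acid libraries lay above both other groups (log2 1.61 ± 0.27, adjusted p = 0.00080). Its FPKM was 2.42 ± 1.09 in control, 3.57 ± 1.09 and 14.3 ± 4.57. In the list of islet and neuroendocrine lncRNAs Miat was the 1 of 5 tested loci that passed, and the list's median log2 was 0.31 with palmitic and 0.40 with stearic acid.

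Lncenc1, a lncRNA of naive embryonic stem cells in mouse, rose with stearic acid from very low levels. It had 0, 2.43 and 2.22 CPM in control, 5.50, 8.40 and 8.07 with palmitic acid and 11.9, 12.8 and 7.41 with stearic acid. All treated libraries were above the controls, with log2 changes of 2.16 ± 0.65 (adjusted p = 0.065) and 2.69 ± 0.64 (adjusted p = 0.012). It was the 1 of 9 tested members of the list of development and pluripotency lncRNAs that passed. Crnde (log2 -0.18 ± 0.21 and -0.21 ± 0.21), Platr26 (0.10 ± 0.19 and 0.16 ± 0.20) and Lhx1os (0.47 ± 0.20 and 0.38 ± 0.20) did not.

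1700020I14Rik, which holds the miR-7 site shown above, was the most abundant of that list. It had 488, 434 and 482 CPM in control, 468, 447 and 454 with palmitic acid and 437, 324 and 464 with stearic acid. The groups overlapped, with log2 changes of -0.04 ± 0.14 and -0.19 ± 0.14. Among microRNA hosts, Mir124-2hg gave -0.10 ± 0.17 and -0.27 ± 0.17 and Mirg 0.10 ± 0.18 and 0.03 ± 0.18, so Dleu2 was the 1 of 3 tested that passed. Ftx, a regulator of X inactivation, had 34.4, 46.2 and 30.8 CPM in control and 20.5, 26.9 and 24.3 with stearic acid (log2 -0.64 ± 0.22, adjusted p = 0.081). The snoRNA host Snhg17 and the injury-induced Mirt1 were tested near the count limit and did not pass. No member of the structural RNA or lipid metabolism lists was tested.

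Some increases stood at starts shared with coding genes, which is not particular to them. A coding start within 1 kb on the other strand was found for 33.3% of the increases with stearic acid. The share over the 307 tested loci was 34.2%, and 1 of the 9 decreases had such a start. 9230114K14Rik starts 0.158 kb from Dhx15, the gene of a splicing helicase, on the other strand. It had 89.7, 76.4 and 72.3 CPM in control, 161, 137 and 152 with palmitic acid and 183, 184 and 189 with stearic acid, with no overlap (log2 0.92 ± 0.15, adjusted p = 0.00077, and 1.22 ± 0.15, adjusted p = 2.5e-05). 4732491K20Rik, 0.089 kb from the stress kinase gene Map3k4, had 72.7, 74.96 and 66.3 CPM in control, 84.7, 92.1 and 89.2 with palmitic acid and 124, 110 and 103 with stearic acid (log2 0.31 ± 0.15, adjusted p = 0.26, and 0.66 ± 0.15, adjusted p = 0.0090). C030037D09Rik, 0.132 kb from the RNA-binding protein gene Msi2, rose with stearic acid (log2 0.66 ± 0.18, adjusted p = 0.022), with 62.1, 44.8 and 47.1 CPM in control and 74.2, 93.3 and 75.8 treated. Without control library 3 neither of the last 2 stearic acid calls held, and C030037D09Rik also lost its call without control library 2 or stearic acid library 2. The messenger RNAs of these coding genes are not in the lncRNA table and were not analysed here.

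Whether genes of protein folding or stress are commoner beside called loci than beside other tested loci was not tested. Gm33280 lies 0.080 kb from Uggt1, which encodes the glucosyltransferase of the endoplasmic reticulum that recognises misfolded glycoproteins. It had 53.8, 38.0 and 37.8 CPM in control, 63.4, 65.7 and 65.0 with palmitic acid and 69.9, 84.6 and 69.6 with stearic acid. All treated libraries were above the controls, and the stearic acid change passed (log2 0.59 ± 0.18, adjusted p = 0.074, and 0.79 ± 0.18, adjusted p = 0.0093), though not without control library 2 or 3. 2810414N06Rik, named after its values were seen, starts 0.353 kb from Edem3, a gene of the degradation of misfolded glycoproteins. It had 17.5, 11.2 and 21.5 CPM in control, 39.97, 43.9 and 51.0 with palmitic acid and 40.4, 41.0 and 42.8 with stearic acid (log2 1.41 ± 0.23, adjusted p = 0.0011, and 1.29 ± 0.24, adjusted p = 0.0017). 1300002E11Rik, which overlaps the span of the stress kinase gene Map3k13, rose with stearic acid from 52.4, 65.7 and 54.9 CPM to 83.7, 81.2 and 100 (log2 0.62 ± 0.17, adjusted p = 0.027), a call lost without control library 1 or 3 or stearic acid library 3.

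**Figure D4:**
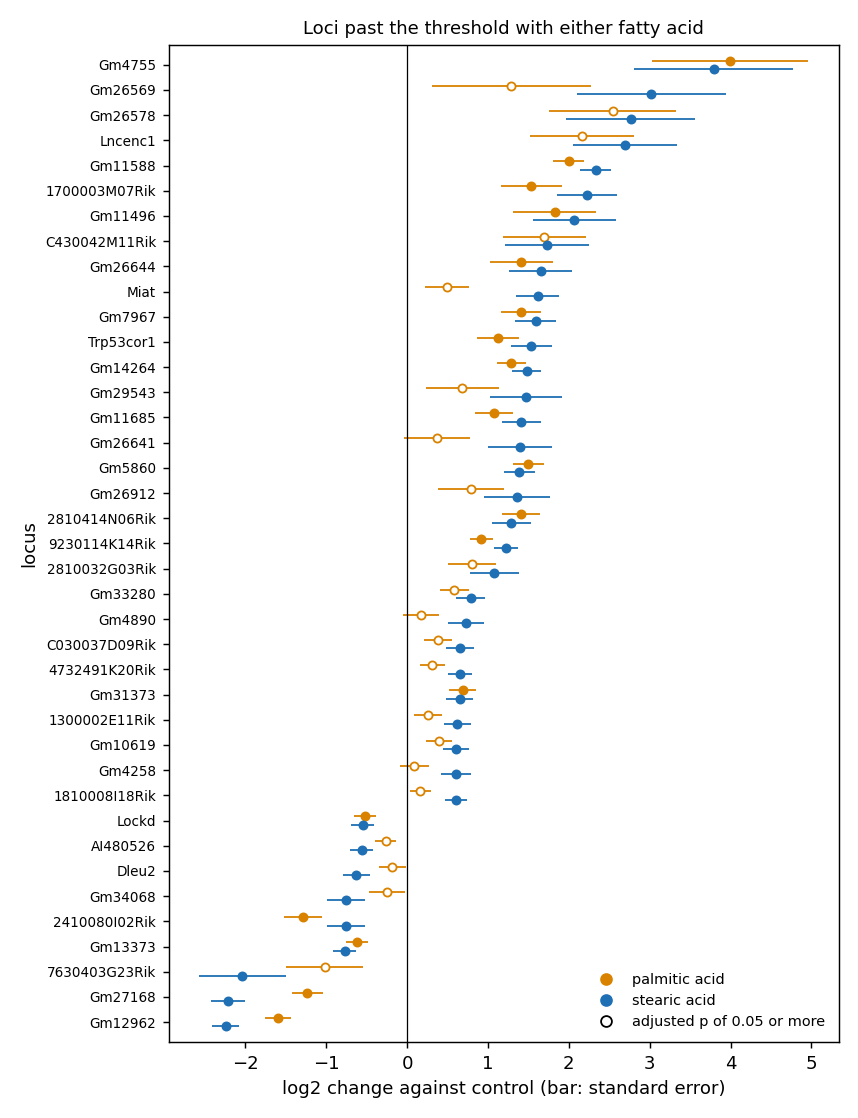
Log2 change against control with its standard error for the 39 known intergenic lncRNA loci past the threshold with either acid, palmitic acid in orange and stearic acid in blue, in order of the stearic acid change. Filled points have an adjusted p under 0.05 and open points do not, with 30 loci higher and 9 lower with stearic acid, and both acids are set against the same 3 control libraries.

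The remaining increases called with stearic acid were mostly at low counts. Among them, 1700003M07Rik (log2 2.22, adjusted p = 0.00095) and Gm11685 (log2 1.41, adjusted p = 0.0010) were named after their values were seen. Both kept the stearic acid call in all 6 fits that left out 1 library. Their palmitic acid calls (log2 1.54, adjusted p = 0.023, and 1.08, adjusted p = 0.013) held in 2 and 4 of 6. The widest log2 values, up to 3.79 with stearic and 3.99 with palmitic acid, were those of Gm4755, which had 0.485, 0.487 and 0 CPM in control, and depend on the small value added to low counts. Its palmitic acid call was lost in all 6 fits that left out 1 library, and its stearic acid call without any 1 control library, without stearic acid library 3 and in a fit of the 2 groups. Over the 30 increases with stearic acid the median log2 change was 1.40, and over the 13 with palmitic acid it was 1.41. The 2 tested loci Platr30 and Gm17575 on chromosome 3 have identical counts in every library and stand for 1 measurement, and neither was called.

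No known intergenic locus differed between stearic and palmitic acid in edgeR's test, at matched dose and time. The lowest adjusted p was 0.16, and 29 of 307 loci had an unadjusted p under 0.05. Over all tested loci 3 passed, or 0.0947% (0.0631% higher and 0.0316% lower), DESeq2 called 1 known intergenic locus, a lower one, and edgeR with no filter on low counts called 5, of which 2 were higher and 3 lower. The libraries of the acids did not overlap at 52 loci (16.9%), beside 13.2% of all loci. At Miat the difference of stearic from palmitic acid was log2 1.13 (95% interval 0.59 to 1.66, not adjusted for the number of loci, adjusted p = 0.16), and at Gm27168 it was -0.98 (-1.44 to -0.53, adjusted p = 0.16). Gm12962 differed by -0.65 (-1.001 to -0.29, adjusted p = 0.29). At Lockd the difference was -0.03 (-0.32 to 0.26), at Gm31373 -0.04 (-0.38 to 0.31) and at Gm5860 -0.11 (-0.48 to 0.26), so these 3 intervals leave room for differences in either direction. A p above the threshold does not show that the acids act alike.

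Of the 2024 loci 1229 list 1 transcript and 795 list 2 or more, up to 13. After the filter on low counts 512 transcripts at 287 loci were tested singly, and 106 loci had at least 2 of them. Of the 201 tested loci that list 2 or more transcripts, 198 had counts in control to give shares, and there the leading transcript held a median of 70.9% of the control count. It held over 90% at 57 loci and under 50% at 39. The transcript leading in control also led with palmitic acid at 164 of 195 loci and with stearic acid at 170 of 195. The spread between libraries was larger for transcripts, with a biological coefficient of variation of 0.564 against 0.228 for loci. Isoform shares are therefore less certain than locus counts. Counts identical in every library were shared by 299 detected member transcripts. These were matched over all loci and with no minimum count, so the number does not measure how reads split between isoforms.

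Isoform shares were compared at the 106 loci with edgeR's test of differential transcript use, and no locus passed with either acid. The lowest adjusted p was 1.00 with palmitic and 0.21 with stearic acid, with 5 and 3 loci at an unadjusted p under 0.05. Over all 737 loci so tested 0.136% passed with palmitic and 0.543% with stearic acid. Tested singly, 2 known intergenic transcripts at 2 loci passed with palmitic acid and 9 at 7 loci with stearic acid, beside 0.407% and 1.42% of all tested transcripts, and none passed between the acids.

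1810008I18Rik (chr7:65802768-65815366, plus strand) gave the lowest p for isoform shares with stearic acid. Its locus count rose with stearic acid (185, 164 and 179 CPM in control, 194, 185 and 214 with palmitic acid, 260, 281 and 264 with stearic acid, log2 0.60 ± 0.13, adjusted p = 0.0066). Of 7 tested transcripts the 3-exon TCONS_00230836 held 25.03, 36.2 and 58.8% of the count in control, 44.5, 58.8 and 29.2% with palmitic acid and 69.4, 71.0 and 67.3% with stearic acid. All stearic acid libraries were above the other 6. TCONS_00230830 went the other way, with 38.6, 35.8 and 12.9% in control, 27.4, 15.9 and 19.1% with palmitic acid and 6.98, 6.40 and 4.30% with stearic acid. The control libraries varied widely (40.02% ± 17.2 for the first), and the test over shares gave an adjusted p of 0.21.

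At 9230114K14Rik the 4-exon TCONS_00195490 held 37.2% ± 7.19 of the count in control, 54.5% ± 2.13 with palmitic acid and 49.6% ± 10.6 with stearic acid, and passed singly with both acids (log2 1.49, adjusted p = 0.029, and 1.64, adjusted p = 0.012). The test of shares did not pass (adjusted p = 1.00 and 0.58). At Gm13373, TCONS_00144474, 1 of 6 tested transcripts, held 40.3, 42.9 and 40.1% in control and 34.1 to 37.7% in the treated libraries, with no overlap. The test of shares did not pass at Gm13373 (unadjusted p = 0.66 with palmitic and 0.41 with stearic acid). At Lockd 1 transcript held 99.1% ± 0.748 of the control count. The loci with the most tested transcripts were 5031425E22Rik, with 10, 2810429I04Rik and 4930578M01Rik, with 8 each, and 4933406I18Rik, with 7 like 1810008I18Rik. In the first, 1 transcript held 78.4% ± 1.91 in control, and in 2810429I04Rik the leading transcript held 19.2% ± 3.24.

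**Figure D5:**
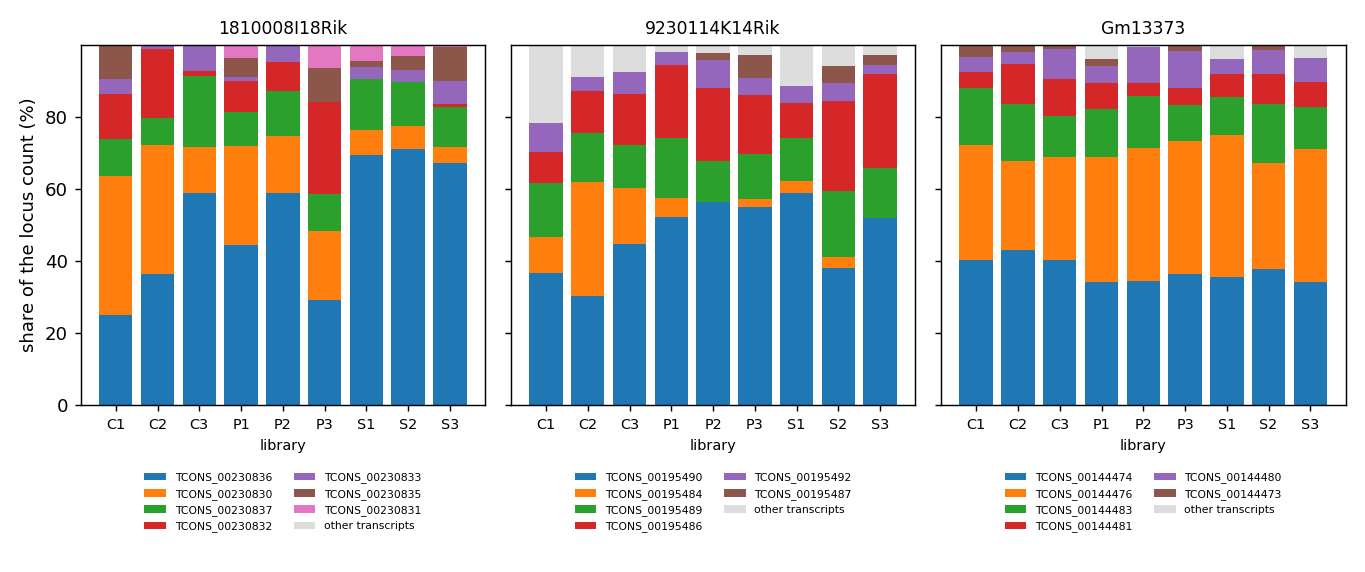
Share of the locus count (%) held by each tested transcript in the 9 libraries (C control, P palmitic acid, S stearic acid) for 3 known intergenic lncRNA loci, with transcripts not tested in grey. At 1810008I18Rik the blue TCONS_00230836 holds 67.3 to 71.0% in the stearic acid libraries, while its share in the control libraries runs from 25.03 to 58.8%.

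The authors' deposited tables list single transcripts. Every known intergenic transcript in them has a log2 change of at least 1.015 in size. Calls per locus here had no limit on size, so the thresholds are unlike. The authors' deposited table for palmitic acid has 8 known intergenic transcripts of 81, at 6 loci, and all 6 were among those called per locus. The authors' deposited table for stearic acid has 23 of 189, at 14 loci, of which 10 were called. In the authors' deposited table of stearic against palmitic acid, 3 of 17 transcripts are known intergenic, at 1810008I18Rik and Gm27168, and neither locus was called.

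RefSeq promoters matched 169 of the 307 tested loci, and 26 of the 39 called with stearic acid. A CCAAT box (CCAAT on either strand) was found in 10 of these 26, in 39.6% of the 169 and in 37.9% of all 27025 promoters of the same length. The E-box CACGTG was found in 4 of 26, 14.2% and 7.24%, and the cyclic AMP response element TGACGTCA in 2 of 26, 4.14% and 1.88%. The amino acid response motif TGATGNAA was in 1 of 26, 2.96% and 4.06%, and the AP-1 motif TGANTCA in 1 of 26, 3.55% and 7.93%. All motifs were searched on both strands, none contains another, and a match describes the sequence only.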

How the data were processed

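Ribosomal RNA-depleted total RNA was sequenced from strand-specific libraries. The submitters' processing notes name, in no stated order, HISAT2 2.0.1 and the build mm10, HTSeq 0.6.1, Trimmomatic 0.30, bcl2fastq 2.17.1.14 and DESeq. No label or header names the assembler, the tool behind the estimated counts or the strand setting, so overlapping genes cannot be told apart. The deposited table holds an expected count per transcript and library, 77.7% of them whole numbers to within 1e-06. It also holds FPKM values that the authors computed. The authors' deposited comparison tables hold log2 fold changes and p-values per transcript.

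Here, expected counts were summed per locus, class and known status, rounded, filtered with filterByExpr, scaled with TMM and compared by the quasi-likelihood test (edgeR 4.0.16, R 4.3.3), in a model of all 9 libraries with 6 residual degrees of freedom. Benjamini-Hochberg adjustment covered all 3169 tested loci. Transcripts (4426 tested) and isoform shares were fitted likewise. Tests are two-sided, and errors of log2 changes are approximate standard errors. Each is the size of the log2 change divided by the square root of the F value of its test. Intervals of log2 changes are built from these errors and include the spread between these libraries. Both are least certain at low counts, where the log2 change depends on the small value added to counts. Floors of 3 counts cover counting error only. The scripts were tested on simulated data.

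Named loci are the 12 of highest control FPKM, the 10 most increased and 10 most decreased calls at or above the median level of the calls, the 5 of lowest adjusted p, called and abundant members of 13 lists, and the 5 loci with most tested transcripts. Members, lists and rules were chosen with earlier results of these data known. Coding neighbours within 10 kb come from GENCODE mouse release 21. Alternatives were DESeq2 1.42.0, other scalings, no filter, other units of counting, fits of 2 groups, a stricter threshold of 0.01, a replicate block and each library left out. A fit without the Gm26917 and Gm13710 loci was chosen after seeing the data. No pairing of libraries by replicate number was seen, as same-numbered libraries deviated from their group means with correlations of -0.049 to 0.055, none over 0.1. The labels do not say whether same-numbered libraries were handled together. Tables and figures used Python 3.11.15, pandas 2.3.3, numpy 2.4.6 and matplotlib 3.10.9.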

Additional observations from a re-analysis of the deposited data

How the results depend on the processing

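Counts of called loci depended mostly on the threshold, the libraries used and the unit of counting. For palmitic acid 18 loci were called, and for stearic acid 39. At an adjusted p under 0.01 these were 9 and 16, and with transcripts tested singly 2 and 7 loci had a called transcript. Leaving out each library gave 10 to 14 and 21 to 33. Scaling by library size gave 15 and 34, DESeq2's Wald test 22 and 40, no filter on low counts 23 and 49, fits of 2 groups 17 and 32, and all transcripts of a locus summed 21 and 49. Without the Gm26917 and Gm13710 loci 19 and 39 were called, and without the most abundant transcript of the table, TCONS_00215072, 18 and 38. DESeq2 size factors left both counts as they were. Between the acids the count was 0 except with DESeq2 (1) and with no filter (5). Isoform shares gave 0 with either acid except for 1 locus with stearic acid without control replicate 3, so leaving out libraries gave 0 to 1 there. The 230 loci expressed in control became 152 at a minimum of 30 counts.

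No pairing of the libraries by replicate number was seen, and the labels state none. With the replicate block 16 loci were called for palmitic acid, 39 for stearic acid and 0 between the acids, and no isoform change was called. Against the fit with no block, Gm11496 and Gm26644 lost their palmitic acid calls, and 2410080I02Rik and Gm26569 their stearic acid calls.

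Of 480 refits of the 32 named called changes, 431 kept the call, 49 lost it and 0 reversed. These refits leave out the threshold of 0.01 and the transcripts tested singly, the settings under which most calls were lost. The call held in all 6 leave-one-out fits for 9 of 18 loci with palmitic and 15 of 39 with stearic acid. Scaling by library size moved the median log2 change of all loci by less than 0.1. Depth limits the account, since 584 detected loci were too low to test, and the median standard error of a log2 change was 0.31 with either acid.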
